A study of Ovis aries with 20 samples.

Results

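The 44 genes described here drive or mark the cell division cycle. They are the rows of the deposited table of normalized counts whose gene name is on a fixed list of cell cycle genes, 44 of 28524 genes. The list holds 5 D cyclins and their kinases, 4 genes of the G1/S step, 9 genes of origin licensing and replication, 2 genes of nucleotide supply, 8 genes of entry into mitosis, 13 genes of chromosomes, spindle and cytokinesis, and 3 inhibitors of cyclin-dependent kinases (CDKs). All 44 passed the filter on low values in every comparison.

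A cell enters division when D cyclins with CDK4 or CDK6, and then E cyclins with CDK2, phosphorylate the retinoblastoma protein and free E2F factors to switch on the genes of DNA replication. Cyclins A and B with CDK1, together with polo and aurora kinases, then drive mitosis, while inhibitors such as p21 and p27 hold the kinases back. In growing antral follicles the granulosa cells divide under follicle-stimulating hormone, for which cyclin D2 is a known target in rodents, and they leave the cycle on luteinization, when p21 and p27 are known to accumulate in rodents.

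The libraries came from adult sheep at 21 months of age. In 5 animals (prenatal T; sheep 209, 210, 230, 276 and 315) the mother had received 100 mg testosterone propionate, or 1.2 mg/kg, into the muscle 2 times a week between days 30 and 90 of gestation. In the 5 controls (sheep 139, 224, 244, 246 and 268) she had received vehicle over the same days. Animals of both groups were synchronized with 2 doses of 10 mg prostaglandin F2α, 11 days apart, and the ovaries were taken 18 hours after the last dose. Granulosa cells, which line the follicle, and theca cells, which surround it, were cut by microdissection from cryosections of 14 µm. Several antral follicles of an animal were pooled in each library, so differences between follicles of an animal cannot be seen. The 19 libraries analysed were prenatal T granulosa (n = 5), control granulosa (n = 4), prenatal T theca (n = 5) and control theca (n = 5). They held 12.7 to 26.0 M reads each. The granulosa library of control sheep 139 was not analysed here.

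Both libraries of prenatal T sheep 209 stood apart. AMH and FSHR, which define granulosa cells, and CYP17A1, which defines androgen-making theca cells, were at 0 in both. In the other 17 libraries all 10 granulosa markers and all 10 theca markers were detected. In sheep 209, 3 of the 10 granulosa markers and 1 of the 10 theca markers were at 0 in each layer. Its theca markers summed to 23131 in granulosa and 370301 in theca, and its granulosa markers to 23774 and 20448. The summed level of 8 epithelial markers was 67692 normalized counts in granulosa and 16549 in theca of sheep 209, against 192 to 4252 and 176 to 843 in the other animals. The summed level of 8 immune markers was 32278 and 26109 in its granulosa and theca, against 297 to 3837 and 1737 to 7179. The counts of called genes and the layer differences given for any of the 44 genes are therefore given with and without this animal. Markers of each layer were also detected in the other: the 10 granulosa markers summed to 44997 to 172734 in granulosa and 16188 to 33564 in theca of the other animals (20448 in theca of sheep 209, with 3 of the 10 at 0), and the 10 theca markers to 20212 to 80422 and 575432 to 869355. Theca libraries held more endothelial marker RNA (8 markers, 1557 to 4132 in granulosa and 11480 to 19603 in theca) and more smooth muscle and pericyte RNA (8 markers, 18055 to 44174 and 106884 to 220838). The part of these other cells in the differences between layers was not tested.

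Most cell cycle genes were higher in granulosa than in theca of the same animal, by about 1 log2 unit. Of the 44, 38 were called higher and 2 lower in granulosa (limma on log2 of the normalized count plus 1, with the animal as a block; a call is an adjusted p below 0.05). Of all 16269 genes tested, 28.6% were called higher and 27.5% lower. The median log2 difference, granulosa minus theca, was 1.01 over the 44 genes and 0.03 over all genes. Without sheep 209 the calls were 40 higher and 2 lower, against 32% and 31.2% of all genes, and the medians were 1.03 and 0.02. The genes called lower were CCND1 and CCND3. CDK4 and CDKN1B were not called with or without sheep 209, and CCNE1 and MCM6 were called only without it. These are bulk libraries, in which a smaller share of dividing cells and less RNA of these genes per cell cannot be told apart.

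The direction was the same from animal to animal for most of the genes. In the 8 animals other than sheep 209 with both layers, 34 of the 44 genes were higher in granulosa in every animal, against 23.4% of all genes, and 2 were lower in every animal, against 22.5%. CDK4, CCNE2, CDK2, MCM3, MCM6, KIF20A, CDKN1A and CDKN1B changed direction between these animals. The granulosa libraries lay wholly above the theca libraries for 8 genes (CDK6, CCNB2, CDK1, PLK1, AURKA, TOP2A, CENPE and CENPF), against 5.74% of all genes. They lay wholly below for CCND1 and CCND3, against 11% of all genes.

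**Figure D1:**
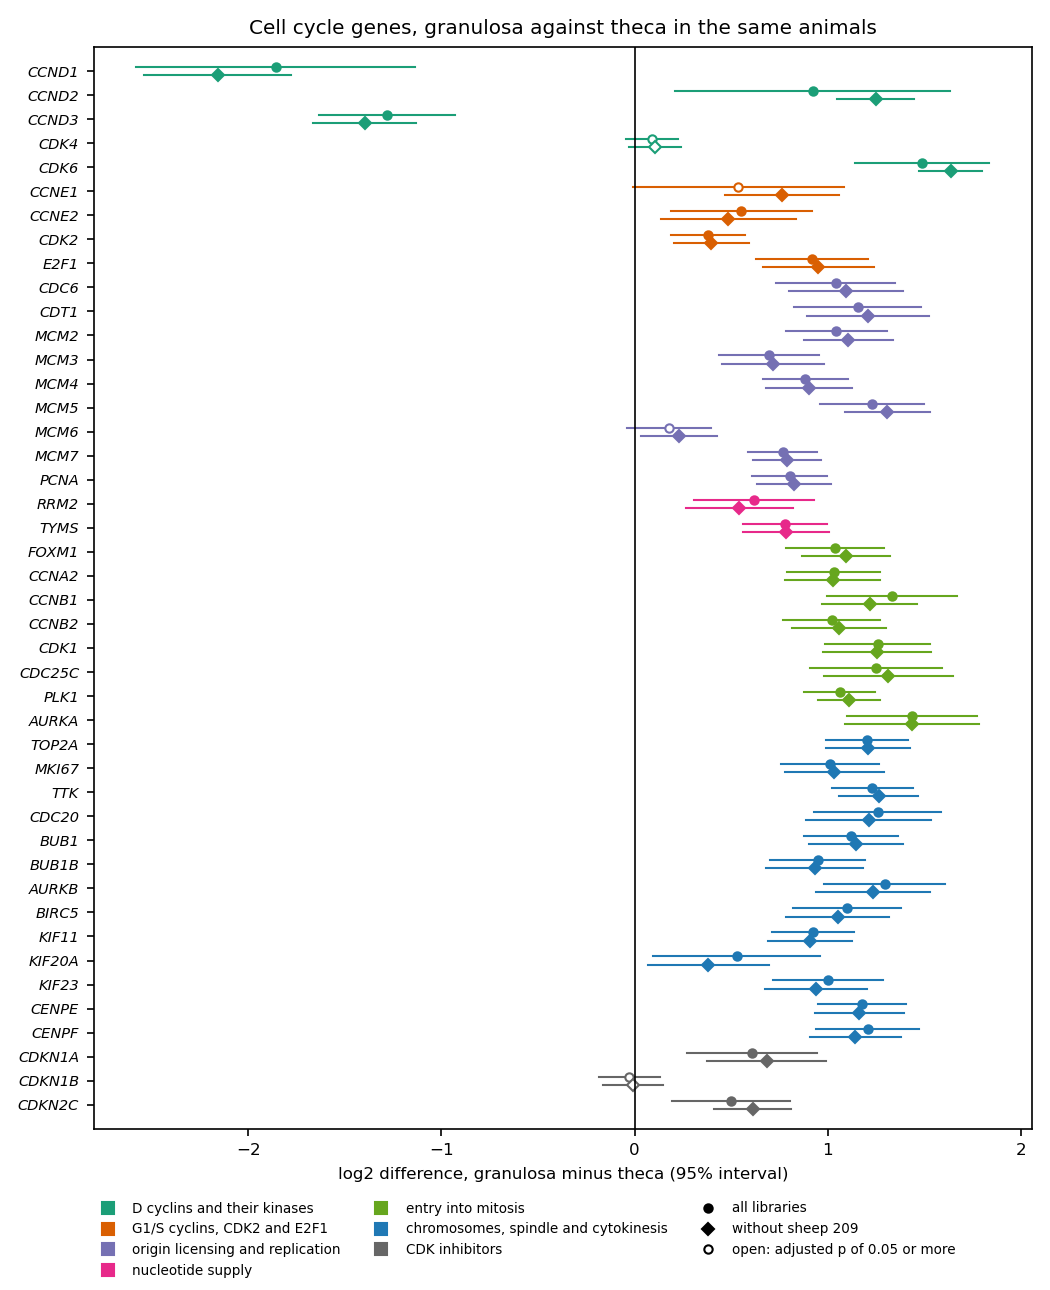
Difference between layers for each of the 44 cell cycle genes. The horizontal axis is the log2 difference, granulosa minus theca, with its 95% interval from limma; colours give the role, circles all libraries, diamonds the libraries without sheep 209, and open symbols an adjusted p of 0.05 or more. All genes of entry into mitosis and of the spindle lie right of 0, while CCND1 and CCND3 lie left of it.

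The D cyclins went in opposite directions between the layers. The per-library values that follow are normalized counts, in the order of sheep 210, 230, 276 and 315 for prenatal T and of sheep 224, 244, 246 and 268 for control, with sheep 139 ahead of these in control theca. CCND1, the cyclin D1 gene, had 67.8, 166, 102 and 90.0 in prenatal T granulosa and 3383 in that of sheep 209, against 56.1, 59.6, 56.4 and 138 in control granulosa. In theca it had 450.4, 445, 535 and 362 in prenatal T theca and 1854 in that of sheep 209, against 639, 426, 330.4, 171 and 486 in control theca. Outside sheep 209, every granulosa library was below every theca library, and the log2 difference within an animal ran from -2.90 to -1.42. In sheep 209 the order was the other way, with a difference of 0.87. The log2 difference over all animals was -1.86 (SE 0.32, adjusted p = 0.000797), and -2.16 (SE 0.17, adjusted p = 1.57e-06) without sheep 209.

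CCND2 encodes cyclin D2, the D cyclin known to serve granulosa cell division in mice. It had 2964, 3401, 4683 and 3569 in prenatal T granulosa and 422 in that of sheep 209, against 3019, 3194, 1177 and 3941 in control granulosa. Theca values were 1230.5, 1301, 1516 and 1389 in prenatal T theca and 1541 in that of sheep 209, against 1233, 1716, 1087, 733 and 1602 in control theca. Granulosa was higher in each of the 8 animals and lower in sheep 209, by -1.87 on the log2 scale. Control sheep 246 had the lowest level in both layers among animals other than 209. The log2 difference was 0.92 (SE 0.32, adjusted p = 0.0313). That call was lost when any 1 of sheep 210, 224, 230, 244, 268, 276 and 315 was left out (adjusted p = 0.0530 to 0.0834), and without sheep 209 the difference was 1.25 (SE 0.09, adjusted p = 7.66e-07).

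CCND3, the cyclin D3 gene, had 327, 245, 202 and 569.6 in prenatal T granulosa and 1652 in that of sheep 209, against 376, 240.4, 352 and 377 in control granulosa. Theca held 758, 754, 746 and 1083 in prenatal T theca and 1971 in that of sheep 209, against 1182, 852, 712, 679 and 1362 in control theca. As for CCND1, all granulosa libraries other than that of sheep 209 were below all theca libraries other than its own, and the log2 difference was -1.28 (SE 0.16, adjusted p = 8.87e-05), and -1.40 (SE 0.12, adjusted p = 2.82e-06) without sheep 209. Of the partner kinases, CDK6 had 7568, 7292, 7383 and 4676 in prenatal T granulosa and 1679 in that of sheep 209, against 5423, 6295, 6141 and 5531 in control granulosa. In theca it had 2545, 1620.2, 2787 and 1346 in prenatal T theca and 1401 in that of sheep 209, against 1558, 1865, 2141, 2251 and 1810.2 in control theca. The granulosa libraries of animals other than 209 lay above all theca libraries, with a log2 difference of 1.49 (SE 0.16, adjusted p = 3.11e-05) over all animals and 1.64 (SE 0.07, adjusted p = 4.07e-08) without sheep 209. CDK4, the other partner kinase, differed by 0.09 (95% interval -0.04 to 0.23, adjusted p = 0.232), and by 0.10 (95% interval -0.03 to 0.24, adjusted p = 0.154) without sheep 209. CDK6 overlaps another protein-coding gene in the RefSeq annotation, whose reads may not be told apart from its own, since the sources used here do not say whether counting used the strand.

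**Figure D2:**
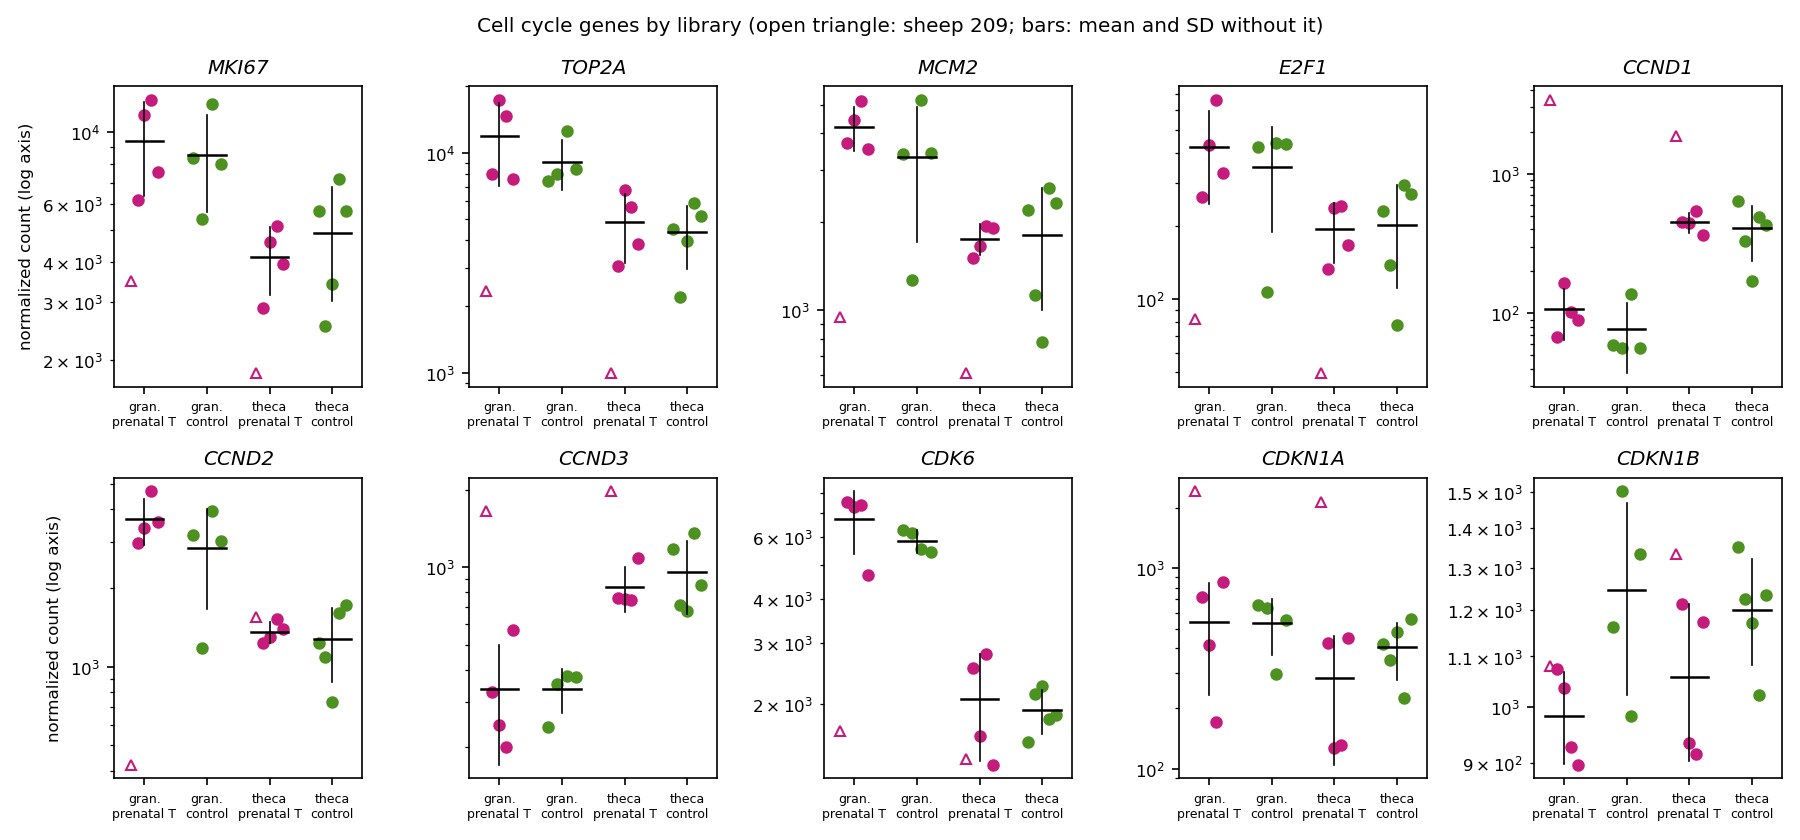
Normalized counts of 10 cell cycle genes by library, on a log axis, for prenatal T (pink) and control (green) granulosa and then theca. Open triangles are sheep 209, lines are the mean and SD without it. CDK6 granulosa libraries other than that of sheep 209 lie above all theca libraries and those of CCND1 below, while prenatal T and control overlap within each layer.

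At the G1/S step 3 of 4 genes were called higher in granulosa, and 4 of 4 without sheep 209. E2F1 encodes a transcription factor that switches on replication genes. It had 264, 433, 665 and 330.4 in prenatal T granulosa and 82.8 in that of sheep 209, against 435, 422, 107 and 441 in control granulosa. Theca had 133, 237, 243 and 166 in prenatal T theca and 49.3 in that of sheep 209, against 232, 270.0, 138, 77.9 and 296 in control theca. E2F1 was higher in granulosa in each animal, and within each layer control sheep 246 was the lowest outside sheep 209. For E2F1 the log2 difference was 0.92 (SE 0.13, adjusted p = 0.000216), and 0.95 (SE 0.13, adjusted p = 8.31e-05) without sheep 209. The gene overlaps PXMP4 in the annotation. CCNE1 (cyclin E1) differed by 0.54 (SE 0.25, adjusted p = 0.0877) over all animals and by 0.76 (SE 0.13, adjusted p = 0.000471) without sheep 209, in which its theca level was above its granulosa level. CCNE2 (cyclin E2) and CDK2, its kinase, differed by 0.55 and 0.38, and by 0.49 and 0.40 without sheep 209. CCNE2 had the fewest reads of the 44 genes, 19 in its lowest library, and overlaps INTS8.

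Origin licensing and replication gave 8 of 9 genes called higher, with a median log2 difference of 0.88, and 9 of 9 without sheep 209, with a median of 0.90. PCNA encodes the sliding clamp of DNA polymerase. Its values were 843, 1489, 1764 and 902 in prenatal T granulosa and 502 in that of sheep 209, against 962, 700.3, 598 and 1258 in control granulosa. In theca they were 501, 808, 852 and 598 in prenatal T theca and 330.2 in that of sheep 209, against 763, 769, 333, 290.0 and 680.3 in control theca. Both layers had their highest level in prenatal T sheep 276, and the layers overlapped although granulosa was higher in each animal. The log2 difference of PCNA was 0.80 (SE 0.09, adjusted p = 3.8e-05), and 0.82 (SE 0.09, adjusted p = 1.25e-05) without sheep 209. MCM6, a subunit of the replicative helicase, had 1795, 3285, 3565 and 2001 in prenatal T granulosa and 1353 in that of sheep 209, against 2013, 1628, 916 and 2249 in control granulosa. Its theca values were 1675, 2542, 2070.2 and 1868 in prenatal T theca and 1511 in that of sheep 209, against 1965, 1955, 1141, 1012 and 2139 in control theca. Granulosa was higher in 7 of the 8 animals, and the log2 difference was 0.18 (SE 0.10, adjusted p = 0.145), and 0.23 (SE 0.09, adjusted p = 0.0425) without sheep 209. MCM6 had the smallest difference of the role, while the subunit MCM5 had the largest, 1.23 (SE 0.12, adjusted p = 2.1e-05), and 1.31 without sheep 209. CDT1 and CDC6, which load the helicase onto origins, differed by 1.16 and 1.04, and by 1.21 and 1.09 without sheep 209.

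Both genes of nucleotide supply were called higher in granulosa. RRM2, a subunit of ribonucleotide reductase, had 272, 524, 706 and 333 in prenatal T granulosa and 405 in that of sheep 209, against 424, 298, 105 and 581 in control granulosa. Theca had 175, 358, 350.2 and 279.9 in prenatal T theca and 156 in that of sheep 209, against 422, 402, 131, 88.7 and 441 in control theca. It was higher in granulosa in each animal, with the layers overlapping. RRM2 differed by 0.62 (SE 0.14, adjusted p = 0.0038), and by 0.54 (SE 0.13, adjusted p = 0.00311) without sheep 209. TYMS, thymidylate synthase, differed by 0.78 with and without sheep 209, and overlaps ENOSF1.

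All 8 genes of entry into mitosis were called higher in granulosa, with a median log2 difference of 1.16 with and without sheep 209, and all 8 were higher in granulosa in each of the 8 animals. CDK1, the mitotic kinase, had 636, 1186, 1085 and 799 in prenatal T granulosa and 389 in that of sheep 209, against 569, 613, 573 and 872 in control granulosa. In theca it had 232, 476, 445 and 299 in prenatal T theca and 148 in that of sheep 209, against 336, 386, 154, 305 and 398 in control theca. The 2 sets of libraries did not overlap outside sheep 209, and the log2 difference was 1.26 (SE 0.12, adjusted p = 1.94e-05), and 1.26 (SE 0.13, adjusted p = 8.82e-06) without sheep 209. CCNB1, the cyclin B1 gene, had 261, 815, 689.9 and 362 in prenatal T granulosa and 196 in that of sheep 209, against 373, 286, 334 and 564 in control granulosa. Theca values were 102, 283, 224 and 189 in prenatal T theca and 34.2 in that of sheep 209, against 193, 227, 93.4, 167 and 279 in control theca. Of the granulosa libraries other than that of sheep 209, prenatal T sheep 210 was lowest and prenatal T sheep 230 highest. The log2 difference of CCNB1 was 1.33 (SE 0.15, adjusted p = 5.28e-05), and 1.22 (SE 0.11, adjusted p = 4.21e-06) without sheep 209. CCNA2, the cyclin A2 gene, had 549, 1134, 1099 and 687 in prenatal T granulosa and 264 in that of sheep 209, against 665, 550.3, 448 and 881 in control granulosa. Its theca values were 243, 436, 411 and 389 in prenatal T theca and 111 in that of sheep 209, against 476, 473, 195, 297 and 487 in control theca. Granulosa exceeded theca by 1.03 (SE 0.11, adjusted p = 3.12e-05) on the log2 scale, and by 1.03 without sheep 209. CCNA2 overlaps EXOSC9.

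FOXM1 encodes the factor that switches on mitotic genes. It had 410.2, 520.2, 573 and 393 in prenatal T granulosa and 86.3 in that of sheep 209, against 480.2, 465, 314 and 664 in control granulosa. In theca FOXM1 had 146, 241, 260.1 and 189 in prenatal T theca and 55.7 in that of sheep 209, against 365, 282, 162, 149 and 431 in control theca. FOXM1 was higher in granulosa by 1.04 (SE 0.11, adjusted p = 4.21e-05), and by 1.09 (SE 0.10, adjusted p = 5.14e-06) without sheep 209. PLK1, polo-like kinase 1, had 869, 1242, 1321 and 809.9 in prenatal T granulosa and 300.3 in that of sheep 209, against 889.8, 811, 860.0 and 1437 in control granulosa. Its theca values were 359.6, 472, 562 and 429 in prenatal T theca and 181 in that of sheep 209, against 547, 484, 332, 489 and 673 in control theca. Outside sheep 209 the layers did not overlap, and the log2 difference was 1.06 (SE 0.08, adjusted p = 4.94e-06), and 1.11 (SE 0.07, adjusted p = 3.63e-07) without sheep 209. PLK1 overlaps ERN2. CDC25C, a phosphatase that activates CDK1, was at low levels, with 87.2, 163, 169.6 and 114 in prenatal T granulosa and 65.6 in that of sheep 209, against 110.0, 109, 72.3 and 144 in control granulosa. Theca had 32.0, 44.0, 50.2 and 42.1 in prenatal T theca and 32.9 in that of sheep 209, against 65.6, 80.3, 46.2, 24.9 and 76.0 in control theca. The difference was 1.25 (SE 0.15, adjusted p = 8.46e-05), and 1.31 without sheep 209, on as few as 23 reads in a library. AURKA, aurora kinase A of the centrosome, had the largest difference of these 8 genes, 1.44 (SE 0.15, adjusted p = 3.28e-05), and 1.44 without sheep 209.

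Genes of chromosomes, spindle and cytokinesis gave 13 of 13 called higher in granulosa, with a median log2 difference of 1.12, and 13 of 13 with a median of 1.14 without sheep 209. MKI67 encodes Ki-67, a coat protein of mitotic chromosomes and a common mark of dividing cells. It had 6182, 11271, 12588 and 7537 in prenatal T granulosa and 3500.3 in that of sheep 209, against 7990.2, 8357, 5398 and 12182 in control granulosa. In theca MKI67 had 2873, 4599.9, 5136 and 3929 in prenatal T theca and 1817 in that of sheep 209, against 5724, 5707, 2542, 3405 and 7174 in control theca. Granulosa was higher in each animal, by 0.49 to 1.72 log2 units outside sheep 209, although the 2 ranges overlapped. MKI67 differed by 1.01 (SE 0.11, adjusted p = 4.98e-05), and by 1.03 (SE 0.12, adjusted p = 1.95e-05) without sheep 209. TOP2A, a topoisomerase that untangles chromosomes, had 8012, 17417, 14642 and 7629 in prenatal T granulosa and 2339 in that of sheep 209, against 8445, 7398, 8017 and 12558 in control granulosa. Theca held 3063, 6759, 5678 and 3825 in prenatal T theca and 995 in that of sheep 209, against 4518, 5171, 2204, 3955 and 5894 in control theca. The lowest granulosa library outside sheep 209 was above the highest theca library, and the log2 difference was 1.21 (SE 0.10, adjusted p = 5.3e-06), and 1.21 (SE 0.10, adjusted p = 1.78e-06) without sheep 209.

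TTK, a kinase of the spindle checkpoint, had 731, 1340.2, 1193 and 761 in prenatal T granulosa and 253 in that of sheep 209, against 691, 635, 494 and 1003 in control granulosa. Theca had 256, 554, 456 and 300.4 in prenatal T theca and 121 in that of sheep 209, against 354, 431, 209, 197 and 501 in control theca. Its log2 difference was 1.23 (SE 0.09, adjusted p = 4.32e-06), the smallest p among the 44 genes over all libraries, and 1.26 without sheep 209. CENPE, a motor protein of the kinetochore, had 2327, 4201, 3705 and 2022 in prenatal T granulosa and 822 in that of sheep 209, against 2576, 2413, 2133 and 3722 in control granulosa. In theca CENPE had 767, 1754, 1638 and 1173 in prenatal T theca and 321 in that of sheep 209, against 1045, 1535, 755, 1044 and 1807 in control theca. The layers did not overlap outside sheep 209, with a log2 difference of 1.18 (SE 0.10, adjusted p = 9.05e-06), and 1.16 without sheep 209. AURKB, aurora kinase B of the chromosomal passenger complex, had 366, 633, 674 and 425 in prenatal T granulosa and 208 in that of sheep 209, against 449, 457, 237 and 583 in control granulosa. Its theca values were 138, 206, 230.4 and 195 in prenatal T theca and 50.6 in that of sheep 209, against 303, 315, 125, 113 and 346 in control theca. It differed by 1.29 (SE 0.14, adjusted p = 4.06e-05), and by 1.24 without sheep 209, and overlaps BORCS6. BIRC5 (survivin), of the same complex, had 569.6, 1094, 1170.1 and 606 in prenatal T granulosa and 292 in that of sheep 209, against 743, 581, 424 and 971 in control granulosa. Theca values of BIRC5 were 215, 425, 448 and 378 in prenatal T theca and 88.6 in that of sheep 209, against 494, 525, 196, 245 and 589 in control theca. The difference was 1.10 (SE 0.13, adjusted p = 5.5e-05), and 1.05 without sheep 209, and the gene overlaps another protein-coding gene. KIF20A, a motor protein of cytokinesis, had the smallest difference of the role, 0.53 (SE 0.19, adjusted p = 0.0397), and 0.38 (SE 0.14, adjusted p = 0.0355) without sheep 209. KIF20A overlaps CDC23.

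Of the 3 inhibitors, CDKN1A and CDKN2C were called higher in granulosa and CDKN1B was not called. CDKN1A, which encodes p21, had 719, 415, 171 and 855 in prenatal T granulosa and 2419.9 in that of sheep 209, against 551, 657, 631 and 298 in control granulosa. In theca CDKN1A had 425, 127, 131 and 448 in prenatal T theca and 2148 in that of sheep 209, against 417, 556, 347, 480.5 and 224 in control theca. Both libraries of sheep 209 were far above all others, and granulosa was higher in 7 of the other 8 animals. The log2 difference was 0.61 (SE 0.15, adjusted p = 0.00624), and 0.68 (SE 0.14, adjusted p = 0.00134) without sheep 209. CDKN2C, which encodes p18, had 389, 554, 744 and 512 in prenatal T granulosa and 94.4 in that of sheep 209, against 512, 428, 320.2 and 587 in control granulosa. Theca values of CDKN2C were 261, 300.4, 344 and 350.4 in prenatal T theca and 120.2 in that of sheep 209, against 377, 407, 256, 289 and 395 in control theca. It was higher in granulosa in each of the 8 animals and lower in sheep 209, and the log2 difference was 0.50 (SE 0.14, adjusted p = 0.0105), and 0.61 (SE 0.09, adjusted p = 0.000138) without sheep 209. CDKN1B, which encodes p27, had 1075, 1037, 927 and 898 in prenatal T granulosa and 1080.5 in that of sheep 209, against 1333, 1164, 1501 and 984 in control granulosa. In theca CDKN1B had 1213, 936, 915 and 1173 in prenatal T theca and 1335 in that of sheep 209, against 1351, 1236, 1225, 1171 and 1023 in control theca. Granulosa was higher in 4 animals and lower in 4, and the log2 difference was -0.03 (95% interval -0.19 to 0.13, adjusted p = 0.764), and -0.01 (95% interval -0.16 to 0.15, adjusted p = 0.938) without sheep 209.

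Other genes of the cycle were also mostly higher in granulosa. Of a separate list of 120 cell cycle genes in the table, 110 were called higher and 2 lower in granulosa, with a median log2 difference of 0.90, and without sheep 209 the calls were 112 and 2. The 4 of smallest p were POLE (a replicative DNA polymerase subunit, 1.36), NCAPD2 (a condensin subunit, 0.94), ECT2 (a regulator of cytokinesis, 1.15) and KNL1 (a kinetochore protein, 0.95). Without sheep 209 they were POLE (1.42), NCAPD2 (0.98), LIG1 (DNA ligase of replication, 1.22) and MCM10 (a replication initiation factor, 0.96).

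The layer difference was present in animals of either treatment. In prenatal T sheep alone 37 of the 44 genes were called higher and 2 lower, against 21.3% and 22.1% of all genes. In control sheep alone 31 were called higher and 2 lower, against 18.7% and 18.8% of all genes. Without sheep 209 the calls were 39 higher and 2 lower in prenatal T sheep, against 26% and 27.4% of all genes, and 35 higher and 2 lower in control sheep, against 24.4% and 23.4%. With all libraries the genes not called in prenatal T sheep were CCND2, CDK4, CCNE1, MCM6 and CDKN1B, and these were also not called in control sheep, along with CCNE2, CDK2, RRM2, KIF20A, CDKN1A and CDKN2C. These lists depended on sheep 209, and the fit shared 1 estimate of the spread between all animals. Without sheep 209 the genes not called were CDK4, KIF20A and CDKN1B in prenatal T sheep, and CDK4, CCNE2, CDK2, MCM6, KIF20A, CDKN1A and CDKN1B in control sheep. Without the animal as a block, 12 genes were called in prenatal T sheep and 4 in control sheep, and 31 and 22 without sheep 209. The share of all genes called by that fit is not given here, so these counts have no background beside them.

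Prenatal T and control granulosa were not told apart by any of the 44 genes. By limma 0 were called, with 0 at an unadjusted p under 0.05, and edgeR and DESeq2 also called 0. Of all 14724 genes limma called 0, which is 0%, and 622 had an unadjusted p under 0.05, while DESeq2 called 5 higher and 11 lower and edgeR called 0. Without sheep 209 limma again called 0 of the 44 genes and 0 of all 14460 genes, with 1 and 1013 at an unadjusted p under 0.05. DESeq2 then called 0 of the 44, and 5 higher and 27 lower of all genes, and edgeR called 0. The log2 difference, prenatal T minus control, was above 0 for 24 of 44 genes with a median of 0.04, and for 40 of 44 with a median of 0.29 without sheep 209. Of all genes, 48.3% were above 0 with a median of -0.01, and 47.9% with a median of -0.01 without sheep 209. The 44 genes varied together between animals, so the count of signs is not a count of independent genes.

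The precision set what could be seen. The 95% interval of the log2 difference in granulosa lay within 1 unit of 0 on both sides for 13 of 44 genes, and for 26 without sheep 209, and for the others a 2-fold change lay within the interval. MKI67 averaged 8216 ± 3718 normalized counts in prenatal T granulosa and 8482 ± 2796 in control granulosa (SD, n = 5 and 4), a log2 difference of -0.13 (95% interval -1.0 to 0.75, adjusted p = 0.945). Without sheep 209 the prenatal T mean was 9395 ± 3027 (n = 4) and the log2 difference 0.15 (95% interval -0.51 to 0.80, adjusted p = 0.912). TOP2A differed by -0.12 (95% interval -1.32 to 1.07, adjusted p = 0.961), and by 0.33 (95% interval -0.34 to 0.99, adjusted p = 0.803) without sheep 209.

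CDKN1B had the smallest p in granulosa, in the direction of lower p27 transcript. It averaged 1003 ± 85.4 in prenatal T granulosa and 1246 ± 222 in control granulosa (SD, n = 5 and 4). The log2 difference was -0.30 (95% interval -0.62 to 0.02, unadjusted p = 0.0644, adjusted p = 0.875), and -0.33 (95% interval -0.65 to -0.01, unadjusted p = 0.0468, adjusted p = 0.712) without sheep 209. The groups overlapped only through control sheep 268, the lowest control, and no adjusted p was near the threshold. CDK1 averaged 927 ± 254 in prenatal T granulosa without sheep 209 and 657 ± 145 in control granulosa (SD, n = 4 each), a log2 difference of 0.48 (95% interval -0.02 to 0.98, unadjusted p = 0.0596, adjusted p = 0.726). With sheep 209, CDK1 differed by 0.23. MCM6 and TTK differed by 0.66 (95% interval -0.06 to 1.38, unadjusted p = 0.0674, adjusted p = 0.728) and 0.51 (95% interval -0.08 to 1.10, unadjusted p = 0.0843, adjusted p = 0.738) without sheep 209, and by 0.48 and 0.12 with it. For CCND1 the log2 difference of 1.50 (95% interval -0.90 to 3.90, adjusted p = 0.875) became 0.49 (95% interval -0.36 to 1.35, adjusted p = 0.782) without sheep 209, and RRM2 differed by 0.51 (95% interval -0.59 to 1.61, adjusted p = 0.875) with all libraries and by 0.53 without sheep 209. On leaving out 1 animal at a time the RRM2 value ran from 0.016, without control sheep 246, to 0.84, without control sheep 268.

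Marker sums also differed between these groups of granulosa libraries. Outside sheep 209 the 10 theca markers summed to 20212 to 39687 normalized counts in prenatal T granulosa and 33342 to 80422 in control granulosa, and the 8 smooth muscle and pericyte markers to 18055 to 27305 and 27840 to 44174, with no marker of either list at 0. The 10 granulosa markers summed to 60676 to 172734 and 44997 to 149781. In prenatal T granulosa 6 luteal markers summed to 2132, 2504, 2493 and 13127 in sheep 210, 230, 276 and 315. They summed to 1751 to 3109 in control granulosa. The part of these cells in the values above was not tested.

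**Figure D3:**
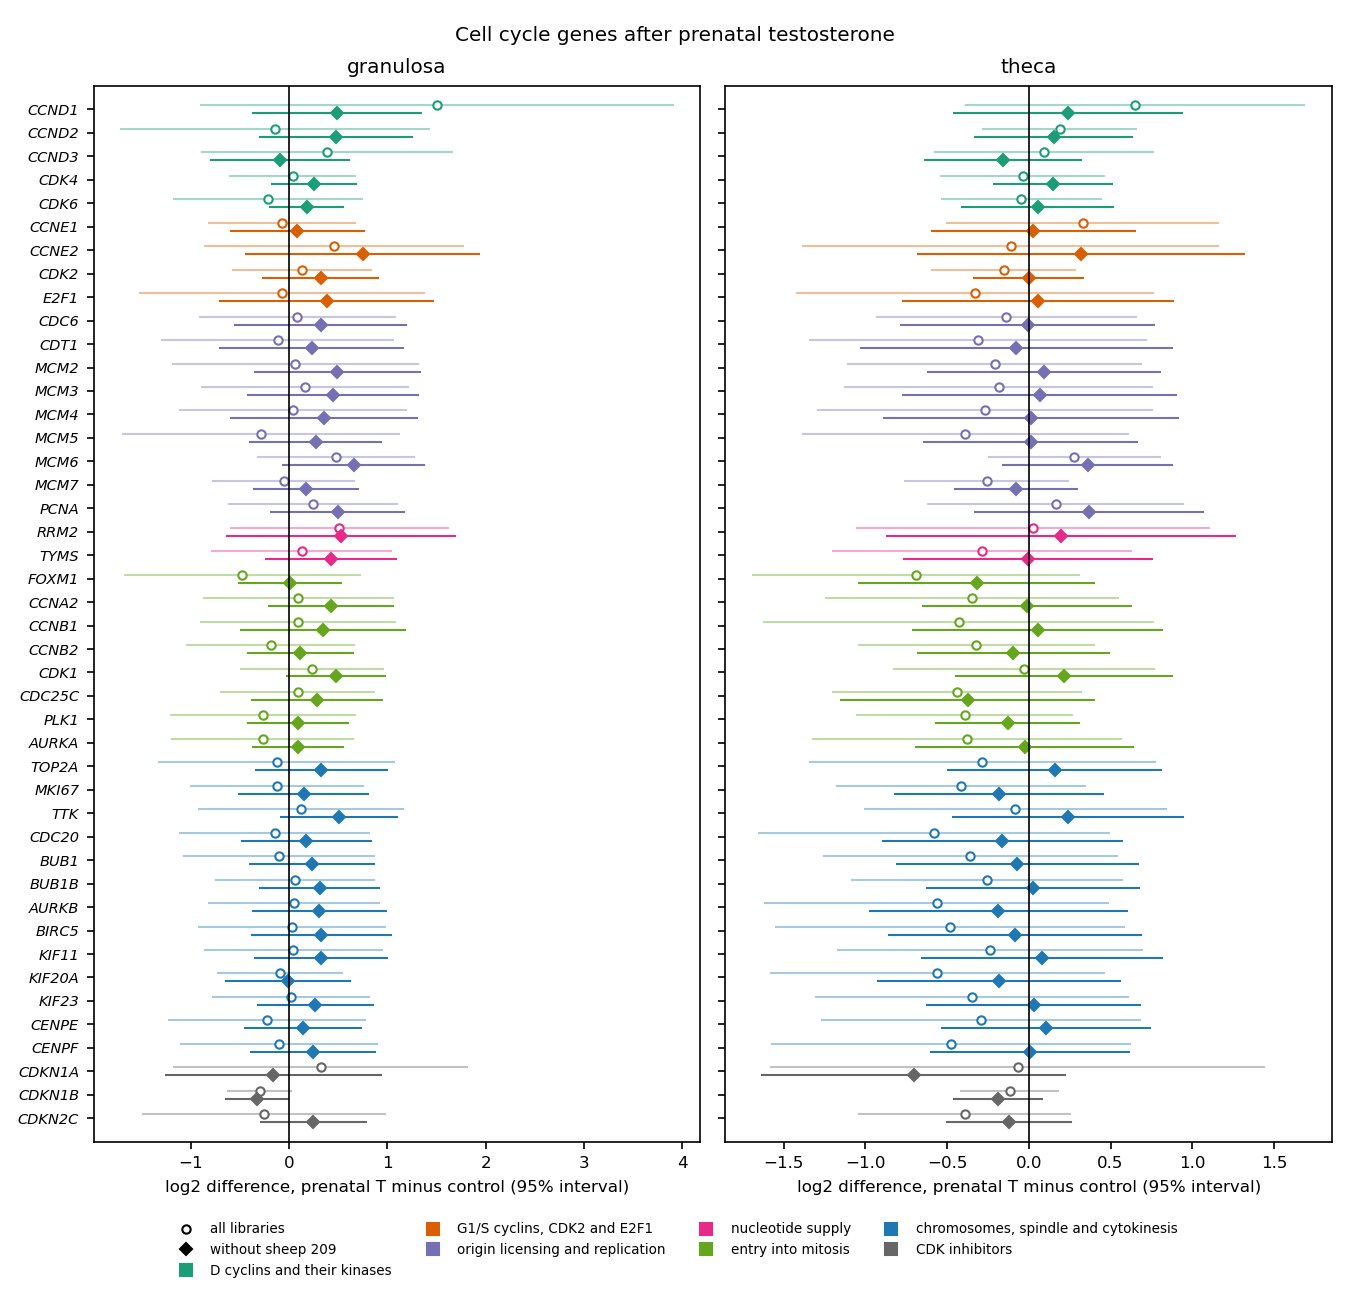
Difference between treatments for each of the 44 cell cycle genes, granulosa at left and theca at right. The horizontal axis is the log2 difference, prenatal T minus control, with its 95% interval from limma; open circles are all libraries, diamonds leave out sheep 209, and colours give the role. No gene was called in either layer, and leaving out sheep 209 moved most points to the right.

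Theca gave 0 of 44 genes called between prenatal T and control sheep, with 0 at an unadjusted p under 0.05, and edgeR and DESeq2 also called 0. Of all 15492 genes limma called 0, which is 0%, and 1192 had an unadjusted p under 0.05, while DESeq2 called 4 higher and 5 lower and edgeR called 0. Leaving out sheep 209, limma called 0 of the 44 genes and 0 of 15304, with 0 and 1854 at an unadjusted p under 0.05. DESeq2 then called 0 of the 44, and 37 higher and 20 lower of all genes, and edgeR 0. With all libraries 7 of 44 log2 differences were above 0, with a median of -0.28, against 50.01% and a median of 0.00 over all genes. Without sheep 209 it was 23 of 44 with a median of 0.01, against 48.3% and a median of -0.01 over all genes. By limma the excess of lower values over the 44 genes was thus not present without sheep 209, although 6 of 8 genes of entry into mitosis stayed below 0. By DESeq2 without sheep 209, 18 of 44 were above 0 with a median of -0.04, against 48.9% and a median of -0.01 over all genes.

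In theca the smallest p with all libraries was that of FOXM1, at -0.69 (95% interval -1.69 to 0.31, unadjusted p = 0.155, adjusted p = 0.691), and without sheep 209 FOXM1 differed by -0.32. CCND1 differed by 0.65, CDKN2C by -0.39 and PLK1 by -0.39, and these became 0.24, -0.12 and -0.13 without sheep 209. Without that animal the smallest p was that of CDKN1A, at -0.70 (95% interval -1.63 to 0.22, unadjusted p = 0.123, adjusted p = 0.503). Its prenatal T theca libraries fell into a pair near 130 normalized counts (sheep 230 and 276) and a pair above 400, and with sheep 209 the log2 difference was -0.07 (95% interval -1.58 to 1.44, adjusted p = 0.979). MCM6, CDKN1B and PCNA differed by 0.36, -0.19 and 0.37 without sheep 209. MKI67 differed by -0.41 (95% interval -1.17 to 0.35, adjusted p = 0.74), and by -0.18 (95% interval -0.82 to 0.46, adjusted p = 0.818) without sheep 209. The interval lay within 1 log2 unit of 0 for 11 of 44 genes, and for 37 without sheep 209. Outside that animal the 6 luteal markers summed to 5429 to 11820 normalized counts in prenatal T theca and 4382 to 5840 in control theca, with at most 1 marker at 0, and their part was not tested.

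The difference of the treatment effect between layers was called for 0 of 44 genes by limma, edgeR and DESeq2, with 0 at an unadjusted p under 0.05. Of all 16269 genes limma called 0, which is 0%, and 758 had an unadjusted p under 0.05, while DESeq2 called 3 higher and 13 lower and edgeR called 0. Without sheep 209 limma called 0 of 44 and 0 of 16021 genes, with 0 and 1326 at an unadjusted p under 0.05, while DESeq2 called 0 of the 44 and 6 higher and 24 lower of all genes, and edgeR 0. The value, which is the granulosa minus theca difference of prenatal T sheep minus that of control sheep, was above 0 for 39 of 44 genes with a median of 0.17, and for 40 of 44 with a median of 0.22 without sheep 209. Of all genes, 46.7% were above 0 with a median of -0.02, and 45.8% with a median of -0.03 without sheep 209. The 44 genes varied together between animals, so this count of signs is also not a count of independent genes. The smallest p with all libraries belonged to AURKB, at 0.49 (95% interval -0.14 to 1.12, unadjusted p = 0.112, adjusted p = 0.96), followed by CCNB1 (0.50), BIRC5 (0.41) and CCNA2 (0.35). Without sheep 209 it belonged to CDC25C, at 0.59 (95% interval -0.08 to 1.25, unadjusted p = 0.0779, adjusted p = 0.632), followed by CDKN1A (0.52), CDKN2C (0.33) and CCND2 (0.32). For CCND2 the value with all libraries was -0.33. The interval lay within 1 log2 unit of 0 for 35 of 44 genes, and for 42 without sheep 209.

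Among the 120 other cell cycle genes 0 were called for treatment in either layer by limma, with 1 in granulosa and 2 in theca at an unadjusted p under 0.05. Of all genes, 622 of 14724 and 1192 of 15492 were under it. Without sheep 209 again 0 of the 120 were called, with 3 and 5 under 0.05, against 1013 of 14460 and 1854 of 15304 of all genes. In granulosa the smallest p of the 120 with all libraries was that of CDKN1C, which encodes the inhibitor p57. It averaged 212 ± 125 normalized counts in prenatal T granulosa and 464 ± 201 in control granulosa (SD, n = 5 and 4), a log2 difference of -1.26 (unadjusted p = 0.0371, adjusted p = 0.875), and -0.94 without sheep 209. CDKN1C was higher in theca, at 689 ± 269 in prenatal T theca and 782 ± 178 in control theca (SD, n = 5 each). Theca marker sums differed between the granulosa groups, as given above, and their part in the CDKN1C difference was not tested. The next by p in granulosa were ORC4 (an origin recognition subunit, 0.25), GMNN (geminin, an inhibitor of licensing, 0.63) and CHEK2 (a checkpoint kinase, 0.52), and without sheep 209 CDC7 (a kinase that fires origins, 0.50), ORC2 (0.30) and CDKN1C were among the first 4. In theca they were ORC4, CDC25B (a CDK-activating phosphatase, -0.41), CDC25A (-0.52) and TROAP (a spindle protein, -0.82). ORC4 averaged 811 ± 116 in prenatal T theca and 609 ± 66.6 in control theca (SD, n = 5 each), a log2 difference of 0.41 (unadjusted p = 0.0103, adjusted p = 0.644). Without sheep 209 they were ORC4 (0.43), CDC7 (0.42), MCM8 (a helicase of recombination repair, 0.54) and CDC25B (-0.48).

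The genes of replication and mitosis varied together between animals of the same group. Leaving aside the D cyclin and inhibitor roles, the other 36 genes had their highest granulosa level outside sheep 209 in prenatal T sheep 276 for 20 genes, in prenatal T sheep 230 for 12 and in control sheep 268 for 4. These 3 libraries were among the 3 highest for 36, 34 and 35 of the 36 genes. The lowest granulosa level was in control sheep 246 for 28 of the 36. In theca the highest level was in control sheep 268 for 17 genes, prenatal T sheep 230 for 10, control sheep 224 for 6, control sheep 139 for 2 and prenatal T sheep 276 for 1. The lowest theca level was in control sheep 244 for 19 genes and control sheep 246 for 16.

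**Figure D4:**
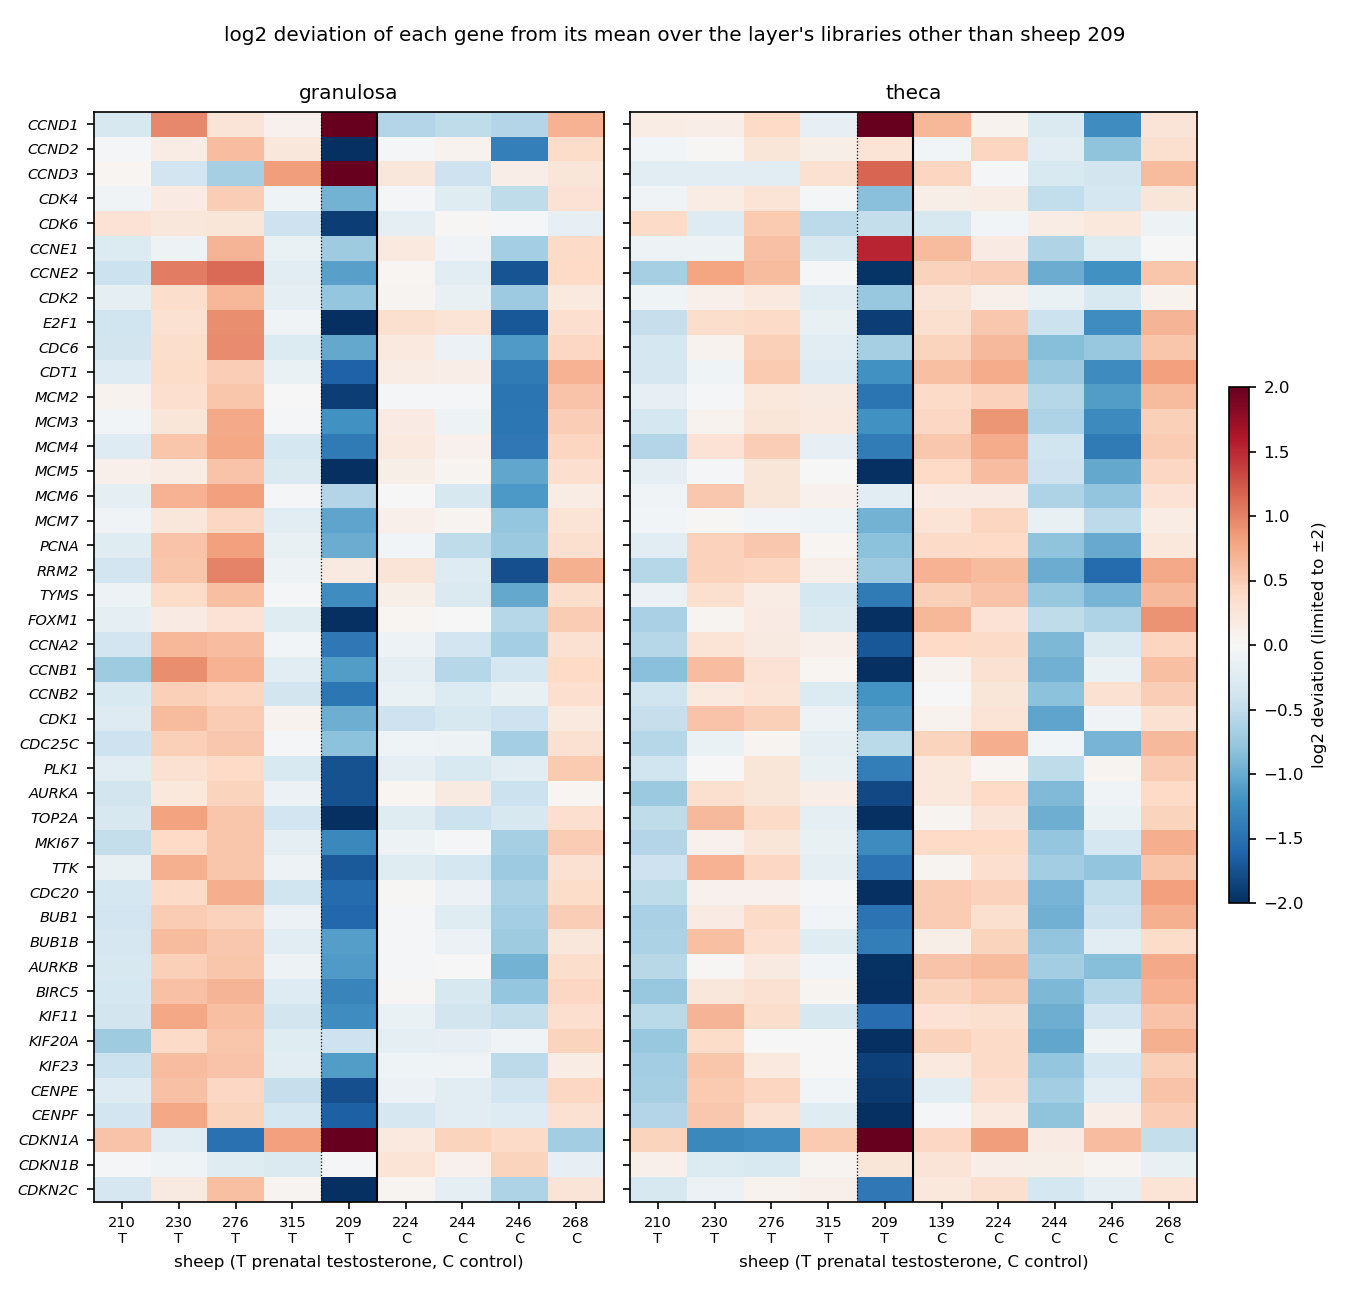
Each row is a cell cycle gene and each column a sheep (T prenatal testosterone, C control), granulosa at left and theca at right. Colour is the log2 deviation from the mean of the layer's libraries other than sheep 209, limited to 2 either way. Sheep 230, 276 and 268 are red for most genes in both layers, sheep 246 is blue for replication genes, and CDKN1A runs the other way.

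Control sheep 246 had less replication than mitosis transcript compared with the other animals. The mean log2 level of the 9 replication genes minus that of the 21 mitosis genes (the 8 of entry and the 13 of the spindle role) was -0.19 in its granulosa, against 0.32 to 0.71 in the other granulosa libraries without sheep 209. In its theca the same difference was -0.01, against 0.50 to 1.03. All 9 replication genes were lowest in this animal in granulosa, and 8 of 9 in theca, outside sheep 209. Its granulosa level of MCM2, a helicase subunit, was 1271 normalized counts, against 3398 to 5210 in the other controls. The same sheep was thus lowest for this difference in both layers.

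**Figure D5:**
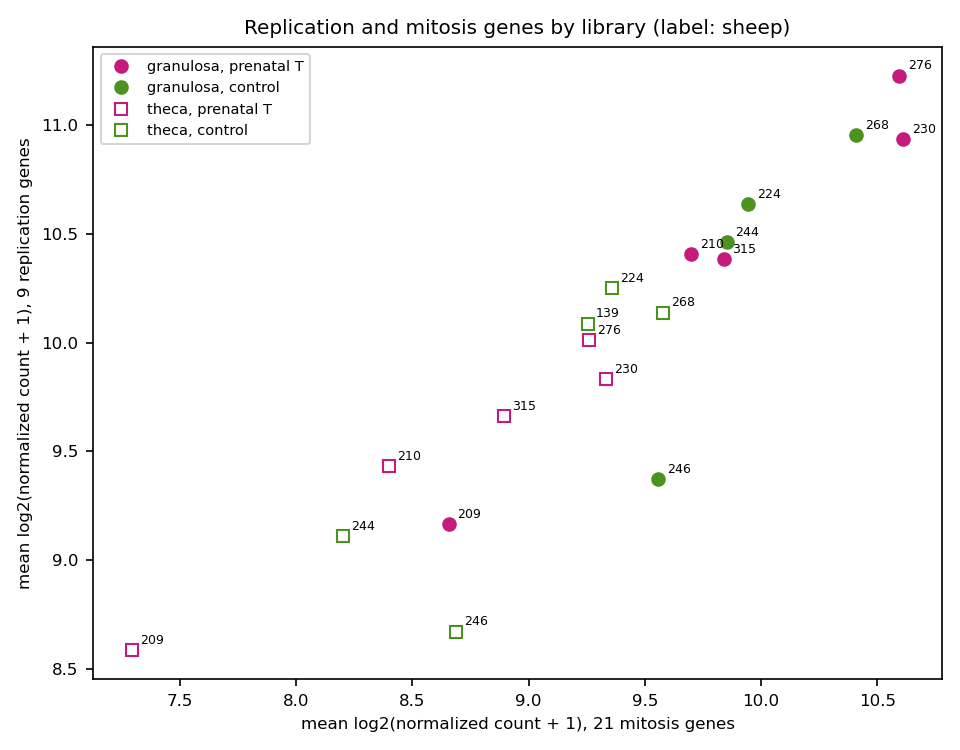
Mean log2 level (normalized count plus 1) of the 21 mitosis genes on the horizontal axis and of the 9 replication genes on the vertical axis, 1 symbol per library, numbered by sheep. Filled circles are granulosa and open squares theca, pink prenatal T and green control. Granulosa lies above and right of the theca of the same animal, and both libraries of sheep 246 lie below the band of the others.

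CDKN1A was lowest in the granulosa libraries with the most transcript of proliferation genes. The 3 granulosa libraries lowest in CDKN1A, those of prenatal T sheep 276 (171 normalized counts), control sheep 268 (298) and prenatal T sheep 230 (415), were the 3 highest in MKI67 (12588, 12182 and 11271). In theca the lowest CDKN1A levels were again in sheep 230 (127), 276 (131) and 268 (224). There MKI67 was highest in control sheep 268, 139 and 224, so the match was partial.

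In sheep 209 the cell cycle genes followed another order. Its granulosa library had the lowest MKI67, TOP2A, PCNA, E2F1, CDK1 and FOXM1 of all granulosa libraries, and its theca library the lowest MKI67, TOP2A, E2F1, CDK1 and FOXM1 of all theca libraries. CCND1, CCND3 and CDKN1A were at their highest there in both layers, next to the epithelial and immune marker sums given above, and their part in these levels was not tested.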

How the data were processed

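The deposited values are a signal: reads counted per gene, which the authors scaled by 1 size factor per library. Per the submitters' processing notes the tools were STAR 2.6.0c, featureCounts (Subread 1.6.1), DESeq2, FastQC 0.11.5 and MultiQC 0.9. The sources used here name no genome build. The kit keeps strand, but whether counting used it is not given. In every library 100% of the deposited values were whole multiples of 1 step (tolerance 1e-06), so whole reads were recovered, 12.7 to 26.0 M per library. Member genes held as few as 19 reads in a library. Levels are not per length and are compared between libraries only, never between genes.

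Groups were taken from the labels (20 samples, 19 with a column of values; 0 columns lacked a sample). A gene entered a comparison if 5 or more of its libraries reached a normalized count of 10. The test was that of limma 3.58.1 (run in R 4.3.3, trended variance prior) on log2(value + 1), two-sided, with p-values adjusted by Benjamini-Hochberg over all genes of a comparison at 0.05. Treatment was fitted within each layer. Layers, and the difference of the treatment effect between them, were fitted over all libraries with the animal as a fixed block. The pairing comes from the sheep number in the labels: deviations of an animal's layers from their group means correlated at r = 0.42 to 0.80 across genes, and for 9 of 9 animals the best match in the other layer was the same sheep. Over the 44 members alone r was 0.30 to 0.87, and the best match was the same sheep for 8 of 9, all but control sheep 244. Libraries of a group were compared for repeats, and none of 36 pairs agreed within sampling noise (smallest chi-square per degree of freedom 27.7).

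Alternatives were edgeR 4.0.16 (quasi-likelihood) and DESeq2 1.42.0 on the recovered reads, TMM scaling, pseudocounts of 0.5 and 5, no filter and a stricter one, the block put in or taken out, and each animal left out. The edgeR, DESeq2, TMM and block settings without sheep 209 were added after seeing the data. The limma fits were also run on simulated counts modelled on the libraries without sheep 209. Those counts were drawn gene by gene with no animal effect, unlike the data. The outcome is not given here, and nothing is concluded from it. Values per library are given for 13 genes chosen for their place in the cycle and for the 4 genes of smallest p in each comparison, with all libraries and without sheep 209. Other members are given by counts, with values for up to 3 of a role. Of the other cell cycle genes, the 4 of smallest p in a comparison are named, except 1 gene that is not reported here. The members, roles, marker lists and tests were chosen with earlier results of these data known. Overlaps between genes were read from the RefSeq annotation of sheep assembly ARS-UI_Ramb_v3.0, in which all 44 symbols matched. Of these, 15 overlap another annotated gene and 9 a protein-coding one.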

Additional observations from a re-analysis of the deposited data

Results flagged for a closer look

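Of 92 groups of values examined, 9 held a library whose gap to its nearest neighbour was large against the range of its group, and chance marks about 1 in 20 groups. Of these, 5 were libraries of prenatal T sheep 209. CCND1 had 3383 normalized counts in its granulosa, against 67.8 to 166 in the other prenatal T granulosa libraries, and 1854 in its theca, against 362 to 535 in the other prenatal T theca libraries. CCND3 had 1652 in granulosa of sheep 209, against 202 to 570 in the rest of the group, and 1971 in theca, against 746 to 1083. CDKN1A had 2148 in its theca, against 127 to 448. Control sheep 268 stood above the other control granulosa libraries for CCND1 (138, against 56.1 to 59.6), CDK1 (872, against 569 to 613) and PLK1 (1437, against 811 to 889.8). Control sheep 246 stood below them for E2F1, at 107 against 422 to 441.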

How the results depend on the processing

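The counts of called genes kept their direction and stayed within 1.5 times the reported ones under other scalings, pseudocounts, filters and tools, except when the pairing was dropped. With no replicate block, 29 of 44 genes were called between layers over all animals (36 without sheep 209), 12 in prenatal T sheep (31 without sheep 209) and 4 in control sheep (22 without sheep 209), while 0 were called for treatment with or without the block. The share of all genes called with no block is not given here, so whether the 44 genes lost more calls than other genes cannot be read from these counts. Leaving out 1 animal at a time gave 38 to 42 calls over all animals, 35 to 41 in prenatal T sheep and 32 to 37 in control sheep, and 0 for treatment in either layer and for the difference of the treatment effect. Except without sheep 209, the share of all genes called in these fits is not given here. Whether the 44 genes held their calls better than other genes therefore cannot be read from these ranges.

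Of the log2 values followed through the settings, those that changed sign were all of genes not called in that comparison. TTK in granulosa ran from -0.092 to 0.51 on leaving out 1 animal. CDKN1A in theca was 0.69 by DESeq2 and 0.68 by edgeR, and ran from -0.70 to 0.31 on leaving out 1 animal. PCNA in theca ran from -0.048 to 0.37. CDKN1B between layers was 0.020 by TMM and 0.020 by edgeR, both without sheep 209, and ran from -0.073 to 0.0030. For the difference of the treatment effect, CCND2 without sheep 209 was 0.33 by DESeq2, 0.30 by TMM, 0.30 by edgeR and 0.33 with no replicate block, and it ran from -0.55 to 0.32, and CDKN2C ran from -0.035 to 0.33. The causes were not tested. The results followed through the settings were the counts of called genes and the log2 values of some genes in some comparisons. Over these, 827 values kept direction and side of the threshold, 12 lost a call and 19 changed sign. Treatment values of genes outside this tally changed sign too. On leaving out sheep 209, those above 0 went from 24 to 40 of the 44 genes in granulosa and from 7 to 23 in theca. No scaling moved the median of all genes by more than 0.08 on the log2 scale. With 4 or 5 animals a group, intervals of many treatment differences hold a 2-fold change, so a missed call does not show equal levels.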
